A study of Mus musculus with 56 samples.

Results

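Of 31999 H3K27Ac regions in mouse bone marrow-derived macrophages (BMDMs), 1492 (4.66%) were listed in both untreated samples and in neither sample taken 1 hr after the addition of IL-4. These are called the lost regions here. Regions of the 4 H3K27Ac lists that overlapped by 1 bp or more were merged, and a merged region was kept when both untreated (ctrl) lists and neither IL-4 list had an entry in it. For comparison, 23151 regions (72.3%) were in all 4 lists, 1295 (4.05%) were in both IL-4 lists and neither ctrl list and are called gained, and 1474 (4.61%) were in both ctrl lists and 1 of the 2 IL-4 lists. The lost regions were chosen by the H3K27Ac entries of these 4 samples, so their absence after IL-4 is a description and was not tested. Their position, their sequence and the other antibodies were not used by the choice.

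All samples were wild-type BMDMs from mice aged 8 to 12 weeks, grown from bone marrow for 6 days with L929 supernatant as the source of M-CSF and cross-linked with DSG and formaldehyde. The ctrl samples received nothing further, and the IL-4 samples received 20 ng/ml IL-4 for 1 hr. Each of H3K27Ac, PU.1, p300, HDAC1, HDAC2, HDAC3, and RNA polymerase II phosphorylated at serine 5 (RNAPII-pS5) or serine 2 (RNAPII-pS2) was measured by ChIP-seq in 2 ctrl and 2 IL-4 samples, which the study describes as independent biological replicates. A pretreatment experiment covered RNAPII-pS5 and the NF-kB subunit p65 with 2 samples per group, from cells that were untreated (ctrl/ctrl), pretreated with IL-4 for 24 hr (IL-4 PT/ctrl), given 100 ng/ml LPS for 1 hr (ctrl/LPS), or given both (IL-4 PT/LPS). The deposited values are peak lists, so sequencing depth is unknown, and a bulk sample cannot tell a mark lowered in every cell from one lost in fewer cells. The H3K27Ac lists held 27750 and 27797 regions in ctrl and 26995 and 26982 regions after IL-4. Of 8 macrophage marker genes, 5 (Adgre1, Itgam, Spi1, Mertk, and Fcgr1) had a region of all 4 lists in the gene or within 2 kb. The same held for 2 of 4 T cell, 2 of 4 B cell, 1 of 5 neutrophil, 1 of 3 erythroid, and 0 of 4 fibroblast markers. At promoters as annotated in the files, 1 of the 8 macrophage markers (Mertk) had a region in each list, so the labelled cell type has little support from promoter acetylation in these lists alone.

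Acetylation of lysine 27 on histone H3 marks active promoters and enhancers. It is written by the acetyltransferases p300 and CBP and removed by histone deacetylases such as HDAC1, HDAC2, and HDAC3. In macrophages, PU.1 opens and holds many enhancers together with C/EBP, AP-1, and RUNX factors, and IL-4 adds the signal-dependent factor STAT6, which turns on the alternative activation program and turns off part of the inflammatory one. RNAPII-pS5 marks polymerase that has started transcription, at promoters and at active enhancers, and RNAPII-pS2 marks polymerase that is elongating.

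A PU.1 peak was present in at least 1 ctrl sample at 991 of the lost regions, which allowed the sequence under the factor to be read. Windows of 300 bases around the highest ctrl PU.1 peak were taken from the RefSeq mouse genome (GRCm38, the same assembly as mm10), plus strand. A window is centred on the peak and can reach past the H3K27Ac region or, as at Zeb2, lie just beyond its end. The 6 windows shown here belong to lost regions of different kinds. Zeb2 carried the most H3K27Ac in ctrl, Smad1 and Il12b combined little H3K27Ac with high PU.1, and Cd36 lay far from any IL-4 region. Rel was among the few with NF-kB letters, and Tlr4 had lower p300 after IL-4 relative to the median of each sample. Capitals mark exact matches, on either strand, to the letters searched for PU.1 (GAGGAAGT), AP-1 (TGANTCA), C/EBP (TTGCNNAA), a STAT site with a 4-base gap (TTCNNNNGAA), and NF-kB (GGGNNTTTCC). The Zeb2 window has no match to any motif searched. The windows lie at chr2:45197497-45197796 (Zeb2), chr8:79414975-79415274 (Smad1), chr11:44378005-44378304 (Il12b), chr5:17854468-17854767 (Cd36), chr11:23823380-23823679 (Rel), and chr4:66857110-66857409 (Tlr4).
Zeb2: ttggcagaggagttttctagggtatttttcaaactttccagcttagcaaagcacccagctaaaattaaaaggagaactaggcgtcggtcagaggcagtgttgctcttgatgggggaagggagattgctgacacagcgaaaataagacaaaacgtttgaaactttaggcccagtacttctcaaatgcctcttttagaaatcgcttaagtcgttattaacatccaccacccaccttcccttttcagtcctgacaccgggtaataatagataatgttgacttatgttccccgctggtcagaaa
Smad1: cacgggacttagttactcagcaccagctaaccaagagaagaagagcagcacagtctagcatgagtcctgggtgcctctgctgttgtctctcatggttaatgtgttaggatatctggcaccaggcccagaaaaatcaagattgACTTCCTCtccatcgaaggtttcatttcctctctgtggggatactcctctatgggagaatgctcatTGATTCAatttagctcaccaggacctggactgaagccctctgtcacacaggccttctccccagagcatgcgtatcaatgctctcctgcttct
Il12b: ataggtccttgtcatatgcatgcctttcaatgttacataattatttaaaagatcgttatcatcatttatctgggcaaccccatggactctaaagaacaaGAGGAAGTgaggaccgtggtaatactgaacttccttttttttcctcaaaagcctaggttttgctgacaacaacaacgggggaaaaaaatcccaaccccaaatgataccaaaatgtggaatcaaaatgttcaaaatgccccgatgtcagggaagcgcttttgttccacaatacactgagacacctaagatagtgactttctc
Cd36: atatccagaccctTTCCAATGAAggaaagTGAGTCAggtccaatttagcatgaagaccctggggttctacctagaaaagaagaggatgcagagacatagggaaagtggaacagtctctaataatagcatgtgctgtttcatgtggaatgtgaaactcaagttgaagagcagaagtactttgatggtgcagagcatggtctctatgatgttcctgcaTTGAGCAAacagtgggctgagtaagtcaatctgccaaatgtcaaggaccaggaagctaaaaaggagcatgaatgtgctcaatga
Rel: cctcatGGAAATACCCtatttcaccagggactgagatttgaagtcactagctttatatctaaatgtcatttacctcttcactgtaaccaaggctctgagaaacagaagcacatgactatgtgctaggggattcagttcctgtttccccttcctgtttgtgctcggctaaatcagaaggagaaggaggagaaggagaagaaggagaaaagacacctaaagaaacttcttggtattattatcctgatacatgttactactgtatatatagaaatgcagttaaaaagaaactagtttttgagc
Tlr4: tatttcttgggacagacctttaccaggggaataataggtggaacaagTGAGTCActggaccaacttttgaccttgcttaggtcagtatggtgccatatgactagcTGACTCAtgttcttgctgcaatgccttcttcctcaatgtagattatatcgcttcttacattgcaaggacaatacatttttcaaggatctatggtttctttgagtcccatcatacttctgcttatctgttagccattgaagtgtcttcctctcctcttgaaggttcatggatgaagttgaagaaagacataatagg

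Searches covered both strands, and a window could hold several motifs, overlapping or not. The letters of the macrophage lineage factors were at least as frequent at the lost regions as elsewhere, while the STAT letters were less frequent. GAGGAAGT was found in 20.1% of the 991 lost windows and in 17.7% of the 22154 windows of all regions with a ctrl PU.1 peak. TGANTCA was found in 21.4% against 18.9%, TTGCNNAA in 20.9% against 18.5%, and the RUNX letters TGTGGT in 26.6% against 25.2%. The STAT letters with a 4-base gap, which STAT6 is known to prefer, were found in 5.45% of the lost windows (54 of 991), 10.2% of all windows, and 32.0% of the 724 gained windows. With a 3-base gap (TTCNNNGAA), the shares were 7.97%, 10.7%, and 19.8%. The low STAT share belonged to the weaker lost regions. The 4-base gap was found in 4.06% of 567 windows of lost regions with a mean ctrl H3K27Ac signal under 20 and in 10.9% of 247 windows of those with 50 or more, against 9.95% for regions in all 4 lists. NF-kB letters were found in 14 lost windows (1.41%, against 1.85% of all), the interferon response letters GAAANNGAAA in 7.87% (against 8.22%), and the E-box TCACGTGA of MITF and TFE factors in 0.505% (against 0.533%). A match says only that the letters are present, and base composition differed as well. The median GC content was 45.2% at the lost regions, 47.6% over all regions, and 45.1% at the gained regions.

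**Figure D1:**
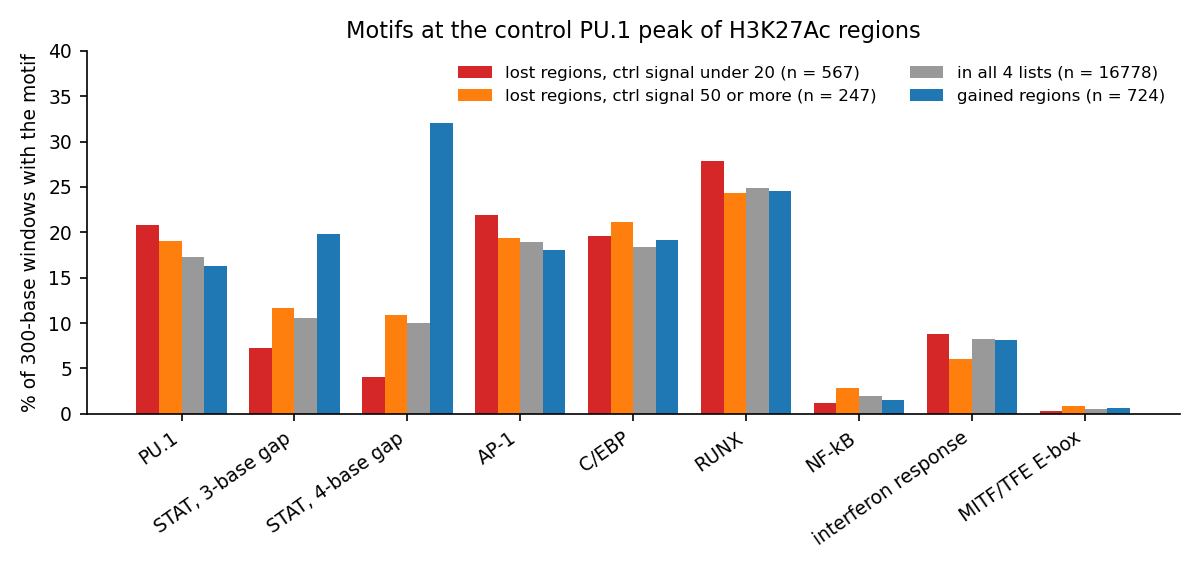
Share of 300-base windows around the highest ctrl PU.1 peak that hold each motif (y axis, percent; x axis, motifs by name), for lost regions with a mean ctrl H3K27Ac signal under 20 or of 50 or more, regions in all 4 lists, and gained regions. The 4-base-gap STAT letters were in 4.06% and 10.9% of the lost windows and 32.0% of the gained ones, while the PU.1, AP-1, C/EBP, and RUNX bars are of similar height in every class.

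Most lost regions were weak before IL-4 was added. The H3K27Ac signal is a number of tags per region, normalised by the caller to a common library size. The lost regions had a median of 15.8 in ctrl 1 and 15.9 in ctrl 2, with quartiles of 12.3 and 32.9 in the first and 12.8 and 34.2 in the second. The lowest signal listed at any region was 9.2 and 9.1 in the ctrl lists and 9.6 and 9.4 in the IL-4 lists. By the mean of both ctrl samples, 943 lost regions (63.2%) had a signal under 20, 249 (16.7%) had 20 to 50, and 300 (20.1%) had 50 or more. Of regions in all 4 lists, 9.39% were under 20 and 64.4% were at 50 or more, with a median of 78.3. Regions in both ctrl lists and 1 IL-4 list were nearly as weak as the lost regions, with a median of 17.3, 60.2% under 20, and 16.5% at 50 or more. A tag counted for 0.307 and 0.313 in the ctrl lists and for 0.331 and 0.347 in the IL-4 lists, so the lowest listed regions held 30, 29, 29, and 27 tags. Loss of a listing near that limit and loss of acetylation cannot be told apart in these lists, and results are therefore given for the weak and the strong lost regions separately.

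The strongest lost regions had signals that compare with those of well-marked enhancers. Ctrl signals over the lost regions reached 889.9 in ctrl 1 and 873.2 in ctrl 2, both at Zeb2. Near the lower edge of the rule were Gm15348 (9.8 and 9.7) and Ppap2b (10.1 and 9.7). Just outside it, with high ctrl signals but an entry in 1 IL-4 list, were the promoter of Atp6v0a1 (743.8 and 715.4 in ctrl, 879.8 in 1 IL-4 sample and no entry in the other), St14 (689.1 and 680.1, then 717.9 and none), and Top3a (711.2 and 610.8, then 761.6 and none). A strong region can thus be absent from 1 IL-4 list and strong in the other. Of the regions in both ctrl lists and 1 IL-4 list, 243 had a mean signal of 50 or more, beside 300 strong lost regions. Loss of a listing and loss of acetylation therefore cannot be told apart at the strong lost regions either, including those named below.

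**Figure D2:**
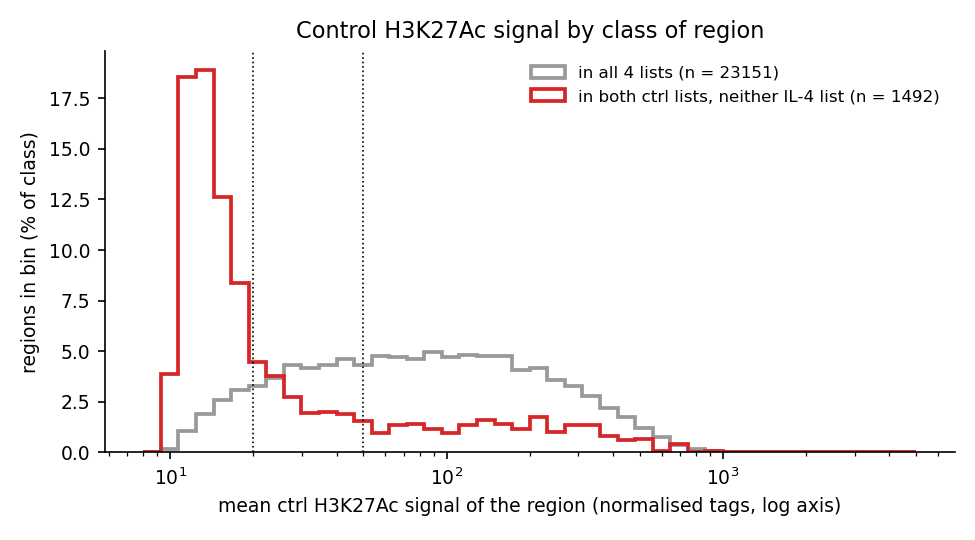
Distribution of the mean ctrl H3K27Ac signal (x axis, normalised tags, log axis) over lost regions and regions in all 4 lists (y axis, percent of the class in each bin). The dotted lines at 20 and 50 separate the 943 weak, 249 intermediate, and 300 strong lost regions, and the lost regions peak at the left while regions in all 4 lists have a median of 78.3.

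Lost regions lay mainly away from promoters. By the annotation in the files, 69 lost regions (4.62%) were promoters, compared with 15.6% of all regions, 663 (44.4%) were intronic, compared with 44.4%, and 682 (45.7%) were intergenic, compared with 33.3%. The median distance to the nearest transcription start site was 26737 bp, against 14759 bp for all regions, and 75.5% of lost regions were more than 10 kb away, against 57.8%. CpG islands were annotated at 11 lost regions (0.737%, against 4.43%) and LTR repeats at 147 (9.85%, against 6.43%). These traits were not particular to the lost regions. Regions in both ctrl lists and 1 IL-4 list had 4.14% promoters, a median distance of 25439 bp, and 8.68% LTR repeats, and gained regions had 6.18% promoters and a median distance of 24123 bp. The strong lost regions differed from the weak ones in this respect. Promoters made up 15.3% of the strong and 1.91% of the weak lost regions, and the median distances were 8898 bp and 31630 bp.

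Strong lost regions were often close to regions that IL-4 samples did list. The median distance from a lost region to the nearest region of either IL-4 list was 12039 bp, and it was 16295 bp for the weak, 8123 bp for the intermediate, and 5498 bp for the strong lost regions. A gained region lay within 10 kb of 92 of 300 strong lost regions (30.7%), of 9.24% of the intermediate ones, and of 1.70% of the weak ones, against 1.96% of regions in all 4 lists. Entries within 1 list started at least 2531 bp apart, so a stretch of acetylation is reduced to spaced entries, and near some strong lost regions the IL-4 lists had an entry at another point. Signals were therefore also summed over a wider window. These sums contain the lost region's own entry, which the rule requires in ctrl and forbids after IL-4, so that a lower sum after IL-4 follows from the choice and is a description only. Within 10 kb either side of a strong lost region, the median sum was 237 and 221 in ctrl and 95.0 and 97.9 after IL-4. Within 50 kb it was 670 and 615 in ctrl and 532 and 541 after IL-4, and no IL-4 list had an entry in the 10 kb window of 101 and 105 of the 300. For all lost regions, the 50 kb sums were 256 and 253 in ctrl and 192 and 196 after IL-4. The IL-4 sum was under 10% of the ctrl sum at 34.0% of strong lost regions within 10 kb and at 2.67% within 50 kb. Of the 300 strong lost regions, 6 and 7 had no entry within 50 kb in the IL-4 lists.

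**Figure D3:**
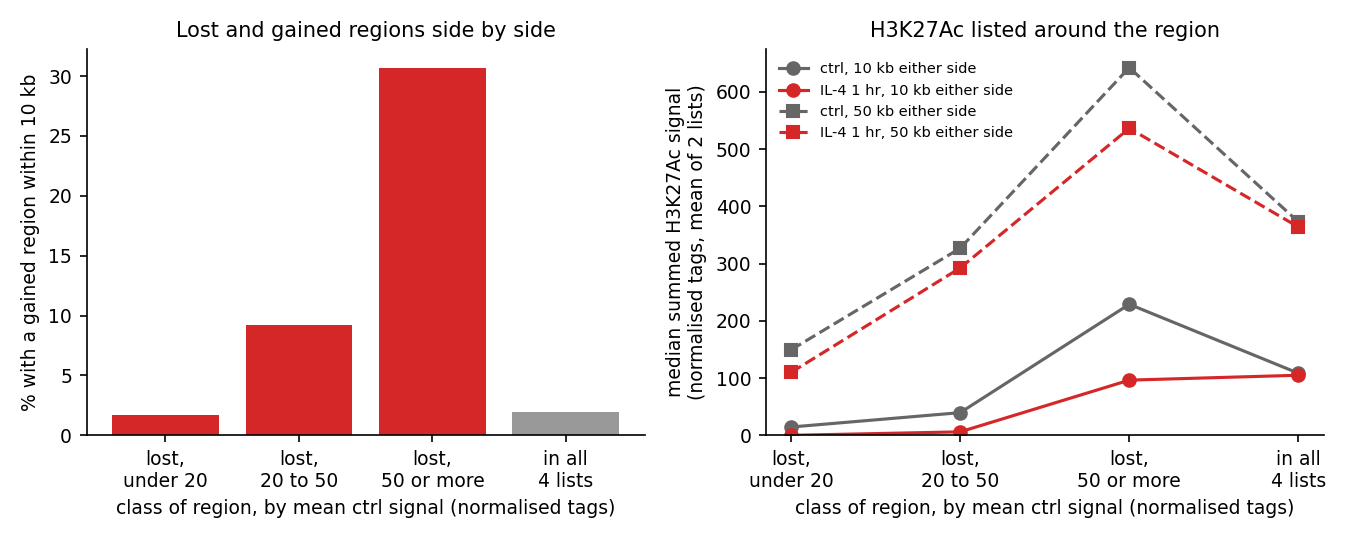
Left, percent of regions with a gained region within 10 kb (y axis) for the lost regions by mean ctrl H3K27Ac signal and for regions in all 4 lists (x axis), at 1.70%, 9.24%, 30.7%, and 1.96%. Right, median summed H3K27Ac signal (y axis, normalised tags, mean of the 2 lists of a condition) within 10 kb and 50 kb either side, in ctrl and after IL-4, for the same classes (x axis). The sums include the region's own entry, so the gap between ctrl and IL-4 at the lost regions follows in part from how they were chosen.

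The 10 strongest lost regions with no IL-4 region within 2500 bp were those of Zeb2, Capza2, Atp6v1a, Gm14005, F830045P16Rik, Abr, Dhrs3, Cd300lb, Snx8, and Gm15471. They differed in what was left around them and in the other factors. Zeb2 encodes a zinc finger transcription factor that helps keep macrophage identity. Its lost region lies between genes, at -83634 bp from the start site (chr2:45196413-45197428), and had 889.9 and 873.2 tags in ctrl with the nearest IL-4 entry 10318 bp away (26.2 and 30.5 tags). PU.1, p300, and RNAPII-pS5 kept their peaks at this site. PU.1 scores, given here as the −log10 of the peak's p- or q-value, were 67.9 and 20.1 in ctrl and 61.8 and 35.4 after IL-4. RNAPII-pS5 scores were 64.1 and 42.2, then 55.3 and 48.5. The p300 scores were 79.6 and 150.2, then 126.5 and 120.5, a centred log2 change of -0.55 ± 0.26 (SE) that did not pass the test (limma adjusted p = 0.23). HDAC1 was listed at 8.35 and 7.64 in ctrl and at none and 5.9 after IL-4.

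Capza2 encodes an actin capping protein. Its lost region (736.4 and 645.1 tags in ctrl) had an IL-4 region 4796 bp away with 581.4 and 593.6 tags, and the lost region of Abr (676.9 and 661.1 tags) had one of 434.1 and 435.7 tags at 5799 bp. The centred changes at Capza2 were 0.09 ± 0.19 for PU.1 and 0.10 ± 0.20 for p300, and those at Abr were -0.02 ± 0.24 and 0.02 ± 0.27, none of them called (limma adjusted p of 0.78 to 0.99). At the promoter of Atp6v1a, a subunit of the proton pump that acidifies lysosomes, the ctrl signal was 714.3 and 661.4 and the nearest IL-4 region was 28845 bp away. RNAPII-pS5 there was 58.2 and 48.9 in ctrl and 44.0 and 35.7 after IL-4, below both ctrl samples, but the change of -0.32 ± 0.17 did not pass (limma adjusted p = 0.37). Polymerase thus remained listed at this promoter without a listed H3K27Ac region.

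Each lost region carries the name of the nearest gene in the files, and 1310 genes had at least 1, or 9.80% of the 13369 genes with any H3K27Ac region. Of these, 1148 had 1 lost region, 144 had 2, and 18 had 3 or more. Most genes kept other marked sites. A region of all 4 lists was also annotated to 1030 of the 1310 genes (78.6%), a gained region to 230, and for 180 genes all annotated regions were lost. The genes with the most lost regions were Elmo1 (4 of 27), which acts in the engulfment of dying cells, the gene model Gm6260 (4 of 10), the polysialyltransferase gene St8sia4 (3 of 10), Asap1, a regulator of Arf GTPases (3 of 15), and the G protein gene Gna12 (3 of 6). At 3 of the 4 Gm6260 regions centred p300 was called lower after IL-4, with changes of -1.32 ± 0.22 (limma adjusted p = 0.020), -1.18 ± 0.27 (0.046), and -0.70 ± 0.15 (0.037). Of all regions tested, 4.79% were called lower, as were 13.8% of the lost regions. Without centring, 0 lost regions were called lower. No lost region of Elmo1 was called for p300.

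Lists of genes with macrophage functions were then read for lost regions. Over all lists, 45 of 280 genes (16.1%, against 9.80% of all genes) had one. Listed genes had more regions each, with 1089 regions at 280 genes, against 31999 at 13369 genes. Of their 1089 regions, 56 (5.14%) were lost, against 4.66% of all regions. Read by regions, the lists together were thus close to the background. Macrophage lineage factors had lost regions at 8 of 18 genes (Cebpd, Maf, Mef2c, Mef2a, Tfec, Zeb2, Fli1, and Etv6), with 12 of 158 regions lost (7.59%). Inflammatory cytokines and chemokines had 6 of 70 regions lost (8.57%), at Il1rn, Il12b, Ccl4, Ccl7, and Cxcl1. Genes of H3K27 acetylation and deacetylation had 6 of 85 (7.06%), at Hdac4, Hdac9, Tbl1x, and Tbl1xr1. The interferon pathway had 4 of 70 (5.71%, at Irf4, Cd274, and Cish), NF-kB and AP-1 factors with their feedback regulators 10 of 191 (5.24%), pattern recognition receptors 4 of 89 (4.49%), and alternative activation genes 4 of 94 (4.26%, at Mrc1, Mgl2, Edn1, and Il4i1). The TGF-beta pathway and lipid handling each had 3 of 76 (3.95%), and cytokine receptors 4 of 114 (3.51%). Fc receptors, phagocytosis and lysosome genes had 0 of 66. A list of genes followed singly in this system had 1 of 69 regions lost (1.45%), at Edn1, which encodes endothelin 1. Gained regions were about as frequent at these genes, at 52 over all lists. In the order given here, the lists held 7, 8, 1, 1, 9, 3, 5, 4, 4, 5, 5, and 2 gained regions. The inflammatory cytokines and chemokines thus had more gained than lost regions. No list was tested, and the shares of lost regions rest on at most 12 lost regions each.

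Among the lineage factors, Cebpd had no H3K27Ac entry after IL-4 at a site that kept its PU.1 and HDAC3 peaks. The labels give the HDAC3 antibody the catalogue number of the H3K27Ac antibody. What the HDAC3 scores measured, here and at the genes below, is therefore not certain. Cebpd encodes C/EBP delta, and its lost region (chr16:15889688-15890765) is annotated to the transcription end, 2902 bp from the start site, with 318.9 and 334.3 tags in ctrl. The nearest entry had 20.2 tags at 4969 bp in 1 IL-4 sample and 37.1 tags at 23350 bp in the other. PU.1 was among the highest of the lost regions, at 141.1 and 80.3 in ctrl and 173.2 and 146.0 after IL-4. HDAC3 was 42.7 and 36.4, then 44.4 and 49.3, so that the IL-4 scores of both lay above the ctrl scores before centring. The centred changes were 0.15 ± 0.18 for PU.1 and -0.05 ± 0.23 for HDAC3, and neither was called (limma adjusted p = 0.82 and 0.95). At Tfec, which encodes a factor of the MITF family, the region had 200.1 and 186.5 tags in ctrl and an IL-4 region of 455.3 and 477.7 tags 4306 bp away. Its RNAPII-pS5 was 19.4 and 6.93 in ctrl and 5.17 and none after IL-4, with a change of -2.06 ± 0.77 that did not pass (limma adjusted p = 0.23).

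Several lost regions at inflammatory genes had an IL-4 region near by. Il12b encodes the p40 subunit shared by IL-12 and IL-23. Its lost region, at -22071 bp from the start site (chr11:44377477-44378492, window shown above), had 21.8 and 21.6 tags in ctrl, an IL-4 region of 25.2 and 26.4 tags 3938 bp away, and high PU.1, at 82.4 and 74.8 in ctrl and 104.0 and 109.8 after IL-4. RNAPII-pS5 was 19.3 and 13.8 in ctrl and 5.83 and none after IL-4, both below ctrl, with a change of -2.46 ± 0.75 that did not pass (limma adjusted p = 0.16). HDAC3 was present in all 4 samples, at 34.7 and 27.5, then 42.7 and 24.9. The Ccl4 region, in an intron 564 bp from the start of this chemokine gene, had 196.5 and 209.6 tags in ctrl and none within 10 kb after IL-4. Its p300 scores were 40.3 and 110.4, then 78.5 and 71.5 (change -0.56 ± 0.15, limma adjusted p = 0.073). The Tlr4 region (chr4:66856649-66857729, 70.0 and 62.2 tags in ctrl) lies 29338 bp from the start of the LPS receptor gene, with an IL-4 region of 255.0 and 252.4 tags 4587 bp away. Its p300 was lower after IL-4 once scores were centred, with a change of -1.18 ± 0.14 (limma adjusted p = 0.0073). Before centring, the scores were 49.7 and 151.8 in ctrl and 61.4 and 66.2 after IL-4, so that ctrl 1 lay below both. Without centring, 0 lost regions were called lower for p300. HDAC1 was listed at 5.49 and 5.13 in ctrl and in neither IL-4 sample. At Rel, which encodes the NF-kB subunit c-Rel, the lost region (209.7 and 205.3 tags, window shown above) was 604 bp from an IL-4 region of 333.1 and 341.2 tags, and the summed signal within 10 kb was 239.5 and 238.4 in ctrl and 388.4 and 391.9 after IL-4. Acetylation around this site was thus listed at another point and at a higher level after IL-4. The Ly96 region, at the gene of the co-receptor MD-2, was weak (15.0 and 14.7 tags) with a p300 change of -1.35 ± 0.60 that did not pass (limma adjusted p = 0.20).

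Several lost regions belonged to genes that IL-4 is known to raise or that lie in repair and lipid uptake. The promoter of Mrc1, the mannose receptor, had 303.9 and 281.2 tags in ctrl, and the nearest IL-4 entry was 19804 bp away. PU.1 at this promoter was 36.7 and 26.7 in ctrl and 92.8 and 60.5 after IL-4, and RNAPII-pS5 was 51.0 and 39.9, then 60.2 and 53.7. All 4 of these IL-4 values lay above the ctrl values, but neither change passed (limma adjusted p = 0.38 and 0.19). Cd36 encodes a scavenger receptor for lipids. Its lost region (chr5:17854215-17855233, window shown above) had 174.1 and 189.3 tags in ctrl, and the nearest IL-4 region was 119869 bp away. PU.1 was 99.9 and 58.0 in ctrl and 123.5 and 141.1 after IL-4. HDAC1 was 22.1 and 21.8, then 13.6 and 5.93 (change -0.96 ± 0.42, limma adjusted p = 0.47). The single scores are before centring, and over all regions the uncentred mean log2 score differed by 0.28 for PU.1 and by -0.33 for HDAC1. At Thbs1, the gene of thrombospondin 1, which can activate TGF-beta, the lost region had 35.3 and 26.6 tags in ctrl and less p300 after IL-4, from 60.2 and 153.6 to 54.9 and 48.8 (change -1.62 ± 0.17, limma adjusted p = 0.0057). RNAPII-pS5 there was 19.3 and 11.8 in ctrl, and HDAC3 was 13.4 and 10.9, and neither was listed after IL-4 (limma adjusted p = 0.089 and 0.11). Both entered the test through their ctrl peaks alone, and a floor stands for the missing IL-4 peaks. These adjusted p-values are therefore not read as support for a decrease. Smad1 (17.8 and 14.7 tags) kept high PU.1, at 128.7 and 94.0 in ctrl and 137.4 and 136.0 after IL-4.

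The p300 peaks at the lost regions were mostly kept, but their scores were lower after IL-4 relative to all H3K27Ac regions. A p300 peak was listed at 82.4% and 95.2% of the lost regions in ctrl and at 89.7% and 91.7% after IL-4, and 46 had none in any sample. Because ctrl 1 had fewer p300 peaks (44787, against 66710 to 69360 in the other samples) and lower scores, log2 scores were set relative to the sample's own median over regions that had a peak in all 4 samples, and a missing peak received a floor. The mean centred score over the 1492 lost regions was 4.15 and 4.48 in ctrl and 3.83 and 3.86 after IL-4, a difference of -0.47. Over all regions the means were 4.06 and 4.33, then 4.49 and 4.49, a difference of 0.30, so the lost regions differed by -0.77 relative to all. All regions here include the lost and the gained ones. The difference was 0.21 in regions of all 4 lists and 2.46 in gained regions. At the lost regions the groups did not overlap, but with 2 samples against 2 the exact two-sided permutation test cannot go below p = 0.33, which is the value obtained. Their difference was -0.53 in the weak, -0.55 in the intermediate, and -0.23 in the strong lost regions. Without centring the direction flips for the lost regions alone, which then differed by 0.12 while all regions differed by 0.87, and the difference between them, -0.74, remains.

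Region by region, both IL-4 samples were below both ctrl samples in p300 at 793 lost regions (53.2%, background 27.8%) and above both at 123 (8.24%, background 29.6%). In limma over all 30237 regions with a p300 peak in at least 2 samples, 1399 lost regions were tested and 93 were not. Of those tested, 193 (13.8%) were lower at an adjusted p of at most 0.05, where 4.79% of all tested regions were, and 9 (0.643%) were higher, where 8.71% of all were. At an unadjusted p of at most 0.05, 491 (35.1%, background 14.3%) were lower and 27 (1.93%, background 15.8%) were higher. The adjusted calls were made at 119 of 878 weak, 37 of 237 intermediate, and 37 of 284 strong lost regions tested. The call depends on the centring and on the ctrl samples. Without centring, 0 lost regions were lower and 1 was higher, while the whole table then held 2 lower and 1020 higher regions. Leaving out ctrl 1 gave 481 lower lost regions (34.8%, against 14.0% of all) and 34 higher (2.46%, against 16.0%). Leaving out ctrl 2 gave 516 lower (38.3%, against 21%) and 178 higher (13.2%, against 28.7%). Under each of these fits except that without centring, the lost regions held a larger share of lower calls than all regions.

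**Figure D4:**
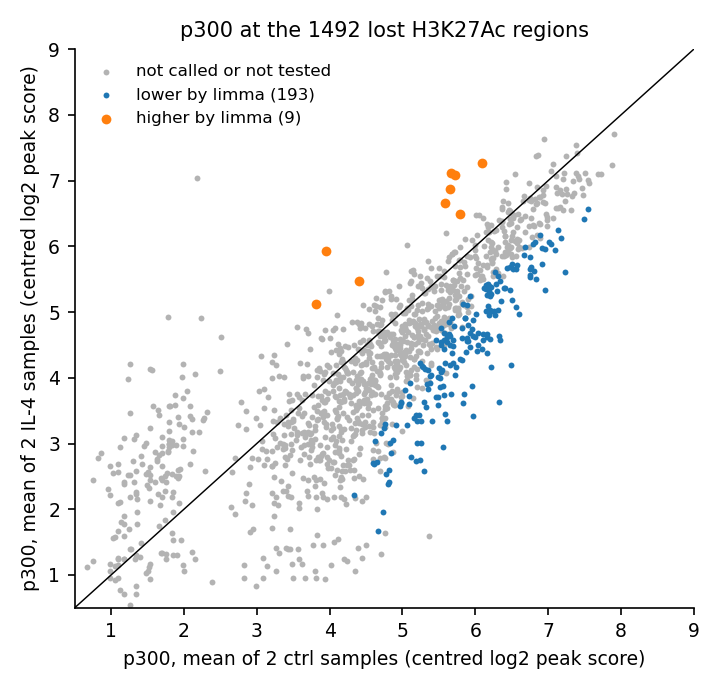
Mean centred log2 p300 score of the 2 IL-4 samples (y axis) against that of the 2 ctrl samples (x axis), 1 point per lost region. The 193 regions called lower by limma lie below the line of equality, the 9 called higher lie above it, and the points that were not called are spread mostly below the line.

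The 5 lost regions with the largest p300 decreases had at most 31.3 H3K27Ac tags in ctrl, and none had a PU.1, HDAC1, HDAC2, or HDAC3 peak in any sample. At Timm23 (mitochondrial protein import) p300 was 4.39 and 20.9 in ctrl and not listed after IL-4 (change -3.50 ± 0.72, limma adjusted p = 0.036). Leprel1, 4933412E24Rik, and Gna12 followed, with 7.51 and 11.5, 3.32 and 24.4, and 5.33 and 11.5 in ctrl and no peak after IL-4. At Vsig4, a complement receptor gene of tissue macrophages, p300 was 9.85 and 39.6 in ctrl and 4.39 and 3.81 after IL-4 (change -3.00 ± 0.49, limma adjusted p = 0.019). Where a peak is missing, the size of the change depends on the floor. Timm23, Leprel1, 4933412E24Rik, and Gna12 entered the test through their ctrl peaks alone, and both IL-4 values are the same floor. Their adjusted p is therefore not read as support for a decrease. Over all lost regions, 11 had a p300 peak in both ctrl samples and in neither IL-4 sample, and 5 had the reverse. Smaller decreases that passed after centring included the interferon-inducible checkpoint gene Cd274, which encodes PD-L1 (30.7 and 98.1, then 55.8 and 53.6, change -0.73 ± 0.14, limma adjusted p = 0.030), and the TGF-beta receptor gene Tgfbr2 (26.8 and 75.4, then 43.0 and 35.1, change -0.94 ± 0.19, limma adjusted p = 0.032). Before centring, ctrl 1 lay below both IL-4 samples at Cd274 and at Tgfbr2, so these decreases rest on the centring.

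A few lost regions had more p300 after IL-4 while their H3K27Ac entry was gone. At the region named for Ikbke, which encodes an inducible kinase of the interferon and NF-kB pathways, H3K27Ac was 342.9 and 330.2 in ctrl, and the nearest IL-4 entry was 38197 bp away. Its p300 was 25.3 and 62.0 in ctrl and 180.6 and 176.0 after IL-4, above both ctrl samples (change 1.44 ± 0.17, limma adjusted p = 0.0079). PU.1 was 17.5 and 19.4, then 49.6 and 77.1, a change of 1.31 ± 0.39 that did not pass (limma adjusted p = 0.35). Dck, the gene of a nucleoside kinase, was similar, with 265.5 and 264.0 tags in ctrl and p300 of 24.2 and 69.4, then 172.8 and 177.1 (change 1.36 ± 0.14, limma adjusted p = 0.0053). The region of Secisbp2l, with an IL-4 region of 334.1 and 340.5 tags 8900 bp away, had p300 of 23.5 and 65.1, then 158.2 and 142.7 (change 1.21 ± 0.15, limma adjusted p = 0.0093). The weaker regions of Ankrd55, Gatm, and Irf4 were also called higher, with changes of 1.99 ± 0.40, 1.3 ± 0.31, and 0.70 ± 0.15. An IL-4 region of 167.5 and 178.8 tags lay 713 bp from the Gatm region. Irf4 encodes a factor of the IL-4 response, and an IL-4 region of 77.1 and 59.0 tags lay 4118 bp from its lost region.

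PU.1 changed less than p300. It was listed at 60.9% and 55.5% of the lost regions in ctrl and at 53.8% and 56.0% after IL-4, and 643 of the 745 regions with a peak in both ctrl samples kept it in both IL-4 samples (86.3%, against 92.0% of all regions). The mean centred score was 2.43 and 2.31 in ctrl and 2.17 and 2.19 after IL-4, a difference of -0.19 (exact permutation p = 0.33), and it was -0.21 relative to all regions. The difference was -0.25 in the weak and -0.17 in the intermediate lost regions, and in the strong ones it was -0.02 with overlapping groups. Without centring the difference over the lost regions was 0.05 and that over all regions 0.28. Both IL-4 samples were below both ctrl samples at 256 lost regions (17.2%, background 14.6%) and above at 114 (7.64%, background 13.1%). limma called 0 of 895 lost regions tested. At an unadjusted p of at most 0.05 it found 57 lower (6.37%, background 4.58%) and 20 higher (2.23%, background 6.95%). Of those tested, 30 entered through ctrl peaks alone and 10 through IL-4 peaks alone, with a floor for the missing peaks. The unadjusted counts thus depend in part on the filter and the floor.

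**Figure D5:**
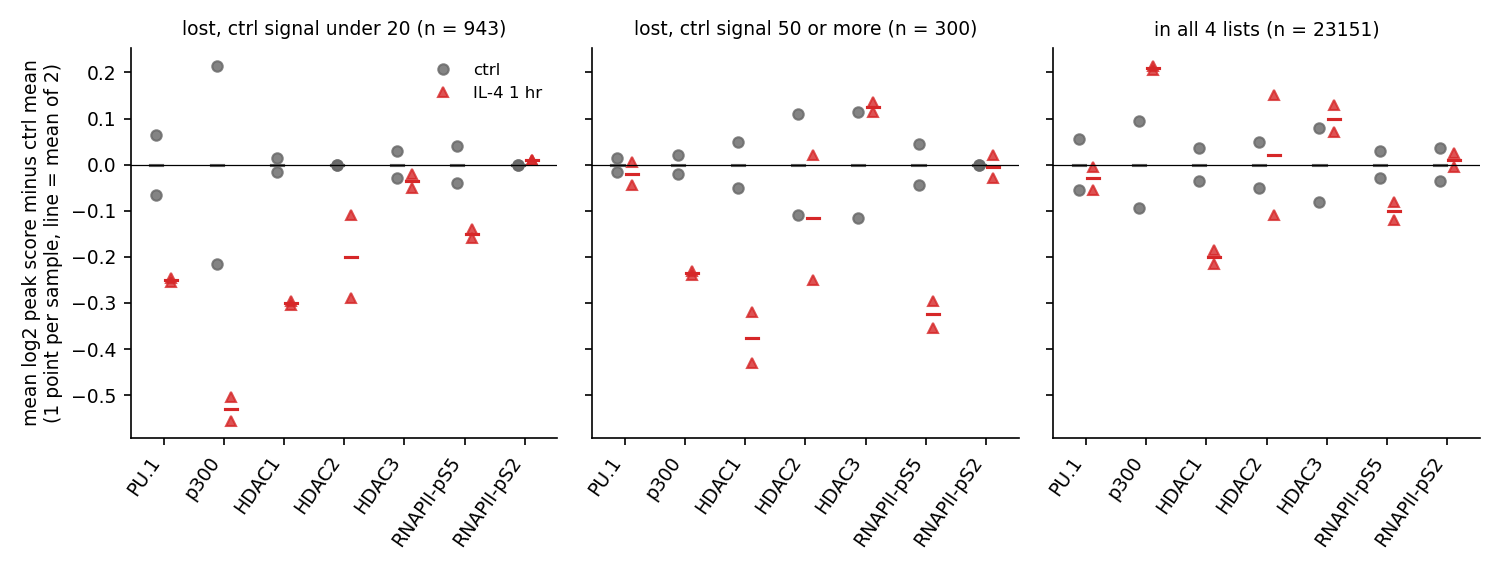
Mean centred log2 peak score of each sample minus the ctrl mean (y axis) for 7 antibodies (x axis), at weak lost regions, strong lost regions, and regions in all 4 lists; each point is 1 sample and lines are means of 2 samples. p300 is at -0.53 and -0.23 after IL-4 in the weak and strong lost regions and above the ctrl mean in regions of all 4 lists, and HDAC1 is below its ctrl points in all 3 panels.

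Of the deacetylases, HDAC1 was listed at fewer lost regions in both IL-4 samples than in both ctrl samples. HDAC1 peaks were at 40.0% and 35.1% of the lost regions in ctrl and at 22.3% and 20.7% after IL-4, compared with 62.5% and 56.6%, then 51.0% and 49.1% of all regions. Of the 398 lost regions with an HDAC1 peak in both ctrl samples, 168 (42.2%) kept it in both IL-4 samples, against 69.0% of all regions, and the share was 29.5% in the weak and 57.3% in the strong lost regions. The share kept thus moved with ctrl strength, and its part in the difference was not tested. The HDAC1 lists also held fewer peaks after IL-4, at 30511 and 26836 in ctrl and 23270 and 22340 after IL-4. The mean centred score was 1.10 and 1.05, then 0.77 and 0.73, a difference of -0.33 (exact permutation p = 0.33) against -0.17 over all regions, and with a higher floor for missing peaks it was -0.05. HDAC1 was lower in both IL-4 samples at 194 lost regions (13.0%, background 14.3%) and higher at 35 (2.35%, background 9.54%). limma called 0 of 507 lost regions tested, and at an unadjusted p of at most 0.05 there were 111 lower (21.9%, background 9.58%) and 4 higher (0.789%, background 4.09%). Of those tested, 103 entered through ctrl peaks alone, with the floor as both IL-4 values, and 3 through IL-4 peaks alone. The unadjusted counts thus depend on the filter and the floor, and no conclusion is drawn from them. Over lost regions with a peak in every sample the difference in mean score was -0.10.

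HDAC2 and HDAC3 showed smaller differences. HDAC2 had mean scores of 1.09 and 1.03 in ctrl and 0.98 and 0.79 after IL-4 at the lost regions, a difference of -0.18 (exact permutation p = 0.33) against 0.04 over all regions. Leaving out the second IL-4 sample left -0.07. It was lower in both IL-4 samples at 158 lost regions (10.6%, background 10.1%) and higher at 53 (3.55%, background 10.7%). limma called 0 of 537 tested, with 56 lower (10.4%, background 5.02%) and 17 higher (3.17%, background 7.76%) at an unadjusted p of at most 0.05. Of those tested, 43 entered through ctrl peaks alone and 13 through IL-4 peaks alone. HDAC3, the catalytic subunit of the NCoR and SMRT corepressors, was listed at 18.4% and 12.8% of the lost regions in ctrl and 17.3% and 15.7% after IL-4. Its mean score was 0.86 and 0.75, then 0.82 and 0.79, with overlapping groups and a difference of 0.00 (exact permutation p = 1.000). In the strong lost regions it was 1.48 and 1.25, then 1.48 and 1.5, a difference of 0.13 (exact permutation p = 0.33) where regions in all 4 lists differed by 0.10. HDAC3 was lower at 67 lost regions (4.49%, background 4.58%) and higher at 53 (3.55%, background 7.43%), and limma called 0 of 265 tested, with 18 lower (6.79%, background 4.91%) and 28 higher (10.6%, background 15.3%) at an unadjusted p of at most 0.05. For HDAC3, 13 of those tested entered through ctrl peaks alone and 20 through IL-4 peaks alone. The labels and the study's ChIP-seq methods give the HDAC3 antibody the catalogue number of the H3K27Ac antibody, while its reagent list gives another. For no deacetylase were both IL-4 shares of listed peaks above both ctrl shares at the lost regions.

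RNAPII-pS5 scores were lower at the lost regions in both IL-4 samples. The mean differed by more at the strong than at the weak ones, most of which had no RNAPII-pS5 peak in any sample. It was listed at 37.9% and 29.5% of the lost regions in ctrl and 25.3% and 23.0% after IL-4, compared with 68.5% and 62.0%, then 62.4% and 59.5% of all regions. The mean centred score was 1.47 and 1.38 in ctrl and 1.23 and 1.20 after IL-4, a difference of -0.21 (exact permutation p = 0.33), against -0.07 over all regions. In the strong lost regions it was 3.27 and 3.18, then 2.93 and 2.87, a difference of -0.32. Both IL-4 samples were below both ctrl samples at 189 lost regions (12.7%, background 16.8%) and above at 61 (4.09%, background 17.0%), and 840 had no RNAPII-pS5 peak in any sample. Among the strong lost regions, 101 were lower (33.7%) and 36 were higher (12.0%), where 20.1% and 20.0% of regions in all 4 lists were. limma called 0 of 464 lost regions tested, and at an unadjusted p of at most 0.05 there were 96 lower (20.7%, background 10.2%) and 26 higher (5.60%, background 10.1%). Of the 390 lost regions with RNAPII-pS5 in both ctrl samples, 265 (67.9%) kept it in both IL-4 samples, against 86.4% of all regions. The share was 49.1% in the weak and 83.9% in the strong lost regions. Most strong lost regions therefore still had initiating polymerase after IL-4, at 74.3% and 69.7% of them. No RNAPII-pS5 peak was listed in any sample at 671 weak and 36 strong lost regions, so a floor stands for most weak scores. With a higher floor the difference over the lost regions was -0.05. Lost regions tested through ctrl peaks alone numbered 64, and those tested through IL-4 peaks alone numbered 11.

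RNAPII-pS2 was listed at 8.45% to 10.5% of the lost regions in the 4 samples. Peak names inside its lists give the other treatment than the sample labels do, so no direction is read from it. By the labels the difference was 0.00 (exact permutation p = 1.000), with 46 lost regions lower (3.08%, background 6.48%) and 35 higher (2.35%, background 6.86%). limma called 0 of 155 tested, with 25 lower (16.1%, background 11.3%) and 19 higher (12.3%, background 11.0%) at an unadjusted p of at most 0.05. By the labels, 14 of those tested entered through ctrl peaks alone and 17 through IL-4 peaks alone.

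The experiment with LPS had no H3K27Ac sample, but it shows RNAPII-pS5 and p65 at the lost regions after 24 hr of IL-4. RNAPII-pS5 groups overlapped at that time. The mean centred score was 0.92 and 0.91 in ctrl/ctrl and 0.91 and 0.94 in IL-4 PT/ctrl (difference 0.01, exact permutation p = 0.667). It was lower in both IL-4 PT/ctrl samples at 109 lost regions (7.31%, background 12.7%) and higher at 111 (7.44%, background 13.5%). The peak lists of this experiment were shorter at these sites, with RNAPII-pS5 at 18.4% to 21.1% of the lost regions, so scores of both experiments are not compared.

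p65, which LPS brings to chromatin, was listed at a smaller share of the lost regions than of all regions in every group, while its change in mean score with LPS was similar. p65 peaks were at 11.3% and 11.5% of the lost regions in ctrl/ctrl, 32.8% and 31.7% in ctrl/LPS, and 41.9% and 44.2% in IL-4 PT/LPS, compared with 19.8% and 19.8%, 41.2% and 42.2%, and 48.9% and 51.3% of all regions. The mean centred score was 0.01 and 0.03 in ctrl/ctrl and 0.66 and 0.66 in ctrl/LPS, a difference of 0.64 (exact permutation p = 0.33) that was 0.05 more than over all regions. With LPS, p65 was higher in both samples at 308 lost regions (20.6%, background 21.9%) and lower at 51 (3.42%, background 6.39%). With IL-4 pretreatment before LPS, p65 scores at the lost regions were not below those with LPS alone. The mean score was 0.66 and 0.66 in ctrl/LPS and 0.89 and 0.95 in IL-4 PT/LPS, a difference of 0.26 (exact permutation p = 0.33) that was 0.04 more than over all regions, with 248 lost regions higher (16.6%, background 18.3%) and 126 lower (8.45%, background 10.4%). The Zeb2 region had p65 scores of 12.6 and 7.86 in ctrl/ctrl, 48.5 and 53.3 in ctrl/LPS, and 92.7 and 93.6 in IL-4 PT/LPS. At Ccl7, a chemokine gene whose lost region had 27.6 and 28.1 tags, the order differed, with 3.59 and none in ctrl/ctrl, 52.0 and 38.3 in ctrl/LPS, and 18.5 and 14.3 in IL-4 PT/LPS.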

How the data were processed

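All 56 samples are ChIP-seq libraries of mouse BMDMs. Per the submitters' processing notes, the authors used BWA 0.7.10, SAMtools 0.1.19, HOMER 4.2, and MACS2 2.0.10 on mm10. The deposited H3K27Ac values are signal, HOMER's normalised tags in regions of mostly 1001 bp. The deposited scores of the other antibodies are MACS2's −log10 of a p- or q-value, annotated by HOMER. Tag totals are not in these lists, so depth is unknown and no counting interval is given. The 8 RNAPII-pS2 lists of the pretreatment experiment were not used.

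H3K27Ac regions were merged at 1 bp. The highest peak of each antibody that overlapped a merged region gave its log2 score, a missing peak received the lowest score of the antibody, and scores were set relative to the sample's own median over regions that had a peak in every sample. Means were compared by exact two-sided permutation tests of 2 against 2 samples, and regions with a peak in at least 2 samples by limma, without a replicate block, with Benjamini-Hochberg adjustment at 0.05 over all tested regions. Background is the share of all regions tested, or of all merged regions for non-overlapping groups, that meets the same rule. Scripts were tested on simulated data. Python 3.11.15, pandas 2.3.3, numpy 2.4.6, scipy 1.17.1, matplotlib 3.10.9, pysam 0.24.0, R 4.3.3, and limma 3.58.1 were used.

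Named regions were the 10 with the highest ctrl signal and no IL-4 region within 2500 bp, up to 5 limma calls per antibody and direction by size, up to 3 per gene list by ctrl signal, the 5 genes with most lost regions, regions at the edge of the rule, and genes measured one by one in the study. The regions and gene lists were chosen with earlier results of these data known. Alternatives were no centring, a higher floor, a peak in every sample, 50% overlap, peaks within 500 bp, stricter region rules, a replicate block, and leaving out each sample. Some items at the edge of the rule are not reported here.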

Additional observations from a re-analysis of the deposited data

How the results depend on the processing

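Values here are for the lost regions, as the change in mean centred log2 score or the number called by limma, and the cause of the shifts was not tested. Of 328 alternative values over 25 results, 104 moved beyond the spread between samples or by more than 1.5 times. Depth is unknown, and with 2 samples a group the exact permutation test cannot reach 0.05. Replicate numbers share only a number (r between 0.00 and 0.08 for same-numbered samples). With a replicate block, limma called 264 lower (18.9%, against 7.0% of all regions) and 15 higher (1.07%, against 10.5%) for p300, and 2 lower and 1 higher for RNAPII-pS5.

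Without centring, PU.1 changed by 0.05, p300 by 0.12, HDAC1 by -0.39, p65 by 0.72 with LPS and 0.34 with IL-4 pretreatment before LPS, and limma called 0 lower and 1 higher for p300. With a higher floor for missing peaks, the changes were -0.12 for PU.1, -0.05 for HDAC1, -0.06 for HDAC2, -0.05 for RNAPII-pS5, and 0.24 and 0.06 for p65. With a peak required in every sample, they were -0.10 for HDAC1, -0.13 for HDAC3, -0.15 for RNAPII-pS5, and -0.15 for RNAPII-pS2, and limma called 1 lower for PU.1, 392 lower (33.4%, against 13.4% of all) and 18 higher (1.53%, against 11.9%) for p300, 4 lower and 2 higher for HDAC3, 10 lower and 3 higher for RNAPII-pS5, and 2 lower for RNAPII-pS2. A 50% overlap gave 17 higher for p300, and without lost regions within 2500 bp of an IL-4 region the p65 change with LPS was 0.66.

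Leaving out 1 sample, the change ranged from -0.23 to -0.11 for PU.1, -0.68 to -0.31 for p300, -0.36 to -0.27 for HDAC1, -0.25 to -0.07 for HDAC2, -0.06 to 0.05 for HDAC3, -0.26 to -0.15 for RNAPII-pS5, -0.01 to 0.01 for RNAPII-pS2, -0.01 to 0.02 for RNAPII-pS5 after IL-4 pretreatment, and 0.64 to 0.65 and 0.22 to 0.29 for p65. limma then called 3 to 6 lower and 0 to 14 higher for PU.1, 200 to 516 and 9 to 178 for p300, 0 to 5 and 0 to 21 for HDAC3, 5 to 18 and 1 to 9 for RNAPII-pS5, 1 to 4 and 0 to 3 for RNAPII-pS2, and 0 to 1 higher for HDAC1 and for HDAC2. Each fit without 1 sample leaves a single sample in a group. For p300 the share of all regions called moved between such fits as well, as given above. The counts from these fits are therefore not read alone as results about the lost regions. At an unadjusted p of at most 0.05, limma found 57 lower and 20 higher for PU.1, 491 and 27 for p300, 111 and 4 for HDAC1, 56 and 17 for HDAC2, 18 and 28 for HDAC3, 96 and 26 for RNAPII-pS5, and 25 and 19 for RNAPII-pS2. These unadjusted counts are to be read against the background shares given above for each antibody.

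Alternatives by ctrl signal and distance were chosen after seeing the data. At 50 or more tags the changes were -0.02 for PU.1, -0.23 for p300, -0.37 for HDAC1, 0.13 for HDAC3, -0.32 for RNAPII-pS5, and 0.81 and 0.18 for p65, with 37 lower for p300. Under 20 tags they were -0.25 for PU.1, -0.15 for RNAPII-pS5, and 0.60 for p65 with LPS, with 119 lower and 1 higher for p300. The number of lost regions was 267 within the upper 50% of the ctrl lists, 2229 to 2420 when 1 H3K27Ac sample was left out, 859 with no IL-4 region within 10 kb, and 300 at 50 or more tags.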
